A study of Mus musculus with 6 samples.

Results

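The 31 genes described here encode subunits of the receptors for glutamate and for gamma-aminobutyric acid (GABA), the main excitatory and the main inhibitory transmitter of the brain. They were chosen by symbol from the 54446 genes listed in each library and comprise 4 AMPA, 5 kainate, 1 delta and 6 NMDA receptor subunits, 6 metabotropic glutamate receptors and 9 subunits of the GABA-A receptor. The data were 6 droplet libraries of mouse glioma cultures, sequenced cell by cell. GL261, an established mouse glioma line labelled as glioblastoma cells, was kept in a differentiation medium with fetal calf serum (FCS) and was represented by 2 libraries. GL261-GSCs, labelled glioblastoma stem cells and derived from GL261, were kept in a defined medium for glioma stem cells (GSCs) and were represented by 4 libraries. Both groups share the origin in 1 line, so the medium and the derivation of the culture cannot be told apart, and the labels do not say whether replicates were separate cultures. The p-values then measure only the spread between these libraries, which may be technical. No treatment, genotype or transgene is named for either group, and cells and nuclei are both named as possible input in the labels' protocols.

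Glutamate receptors fall into ligand-gated ion channels (AMPA, kainate, delta and NMDA types), which are assembled from subunits, and metabotropic receptors, which signal through G proteins. A functional NMDA receptor needs the obligate subunit encoded by Grin1 together with a Grin2 or Grin3 subunit. Among kainate receptor subunits, those of Grik1, Grik2 and Grik3 can form channels by themselves, whereas those of Grik4 and Grik5 bind glutamate with high affinity but need a partner of the first kind. GABA-A receptors are chloride channels, most often built of alpha, beta and gamma or delta subunits. In glioma, receptors of both kinds are known from signalling between neurons and tumour cells and from calcium responses to glutamate.

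The level of nearly all of these genes was low, and the glutamate receptor transcripts that were found came mostly from kainate receptor genes. Summed over all libraries, 4 of the 31 genes had no unique molecular identifier (UMI, a tag that counts an RNA molecule once) in a called cell. A further 15 had 1 to 9 UMIs, 4 had 10 to 99 and 8 had 100 or more. The kainate receptor genes held 92.0% of the UMIs of the 31 genes in GL261 and 94.3% in GL261-GSCs. A 5′ library tags the start of a transcript, so a UMI count is not divided by gene length here.

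The called cells numbered 4808 and 5002 in the GL261 libraries and 4264 to 7275 in the GL261-GSCs libraries, with 33320530 to 79472306 UMIs in called cells. The median called cell held 15478 and 13652 UMIs in the GL261 libraries and 15375, 11890, 10638 and 6670 UMIs in GL261-GSCs replicates 1 to 4, so replicate 4 was the shallowest. Between 32 and 59 cell barcodes were called in both libraries of a pair, where random draws of barcodes would give 26.1 to 57.9. The summed level of 7 oligodendrocyte precursor markers was 506 to 564 CPM (UMIs scaled to the normalized library size, the unit of all levels given here) in GL261 and 1374 to 2443 CPM in GL261-GSCs. Olig1 and Olig2 gave most of that difference, while Sox10 (330 and 358 CPM in GL261, 304 to 382 CPM in GL261-GSCs) and Cspg4 (164 and 200 CPM, 67.2 to 209 CPM) overlapped between the groups. That of 6 oligodendrocyte markers was 172 to 268 CPM and 198 to 255 CPM. That of 6 astrocyte markers was 52.8 to 55.0 CPM in GL261 and 170 to 334 CPM in GL261-GSCs, mostly from Aldoc and Gja1. Aldh1l1 and Gfap on that list went the other way. Aldh1l1 had 480 and 392 UMIs in GL261 and at most 1 in a GL261-GSCs library, whereas Gfap had 83 and 82 and at most 2. Aqp4 was at 0 UMIs in every library. That of 6 microglia and macrophage markers was 12.9 to 13.0 CPM in GL261 and 0.192 to 0.349 CPM in GL261-GSCs. Csf1r alone gave 12.9 and 12.6 CPM of the GL261 sums, and C1qa was at 0 UMIs in every library. That of 6 endothelium and pericyte markers was 0.894 to 1.63 CPM in GL261 and 0.439 to 0.913 CPM in GL261-GSCs, with Cldn5 at 0 UMIs. The part of these lists in the receptor results was not tested.

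Promoter sequences are shown for 5 of the receptor genes: the kainate receptor genes Grik2 and Grik3, which were both read in over 1% of thinned cells in each GL261-GSCs library, the NMDA receptor gene Grin1, and the metabotropic receptor genes Grm7 and Grm8, of which the first rose and the second fell. They are the bases before the RefSeq transcription start (GRCm38.p6), 5′ to 3′ on the strand of the gene, without the bases that fall inside the GENCODE gene. RefSeq lists 2 starts for Grm7 and 3 for Grm8, and the one nearest the GENCODE start was taken. Capitals mark matches to the E-box motif CANNTG, where a match on either strand is a match on both. They lie at chr10:49788767-49789004 (minus strand), chr4:125490446-125490695 (plus strand), chr2:25319188-25319437 (minus strand), chr6:110645348-110645580 (plus strand) and chr6:28135179-28135396 (minus strand).
Grik2: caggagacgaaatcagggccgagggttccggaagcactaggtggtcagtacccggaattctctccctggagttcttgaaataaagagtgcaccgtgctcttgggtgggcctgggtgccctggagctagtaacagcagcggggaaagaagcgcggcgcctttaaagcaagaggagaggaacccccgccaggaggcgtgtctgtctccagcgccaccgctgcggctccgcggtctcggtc
Grik3: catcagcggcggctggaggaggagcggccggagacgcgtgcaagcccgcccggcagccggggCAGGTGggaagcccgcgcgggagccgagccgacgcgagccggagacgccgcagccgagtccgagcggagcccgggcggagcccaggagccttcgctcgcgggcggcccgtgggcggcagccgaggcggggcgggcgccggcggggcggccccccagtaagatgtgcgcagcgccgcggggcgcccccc
Grin1: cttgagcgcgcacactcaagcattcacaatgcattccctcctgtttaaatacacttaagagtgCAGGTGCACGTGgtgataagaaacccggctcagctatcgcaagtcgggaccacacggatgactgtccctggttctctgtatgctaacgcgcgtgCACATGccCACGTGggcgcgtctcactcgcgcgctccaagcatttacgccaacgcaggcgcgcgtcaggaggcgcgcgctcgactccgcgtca
Grm7: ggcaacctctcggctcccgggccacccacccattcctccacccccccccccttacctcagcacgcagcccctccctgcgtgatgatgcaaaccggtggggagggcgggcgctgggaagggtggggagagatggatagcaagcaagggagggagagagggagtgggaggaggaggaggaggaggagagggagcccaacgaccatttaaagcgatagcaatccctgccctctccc
Grm8: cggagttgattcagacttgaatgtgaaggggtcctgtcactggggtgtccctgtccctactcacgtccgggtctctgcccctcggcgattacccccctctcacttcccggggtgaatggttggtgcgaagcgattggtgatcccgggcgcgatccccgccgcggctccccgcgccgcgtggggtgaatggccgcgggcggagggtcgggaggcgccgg

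A promoter of 250 bases was matched in RefSeq for 21 of the 31 genes, Grik1 not among them. The median number of CpG dinucleotides in these windows was 15, against 6 over the promoters of 27025 genes. Grik3 had 42 CpGs, Grik4 36, Grm8 29, Grin1 27 and Grik2 20, whereas Grm7 and Grin2d had 9 each and Gabrg1 had 1. The counts cover all 250 bases, also those inside the gene that the sequences shown for Grik2, Grm7 and Grm8 leave out. Of the Grik4 window, 122 bases lie inside the gene, and the Grin2d and Gabrb2 windows lie inside their GENCODE genes. An E-box was present in 42.9% of the receptor windows and in 66.0% of all windows. The Grin1 window held 4 E-box matches and the Grik3 window 1, while those of Grik2, Grik4, Grik5, Grm7 and Grm8 held 0. The motif AACAAT, searched on both strands, occurred in 4.76% of the receptor windows and 9.61% of all windows, and TATAAA in 9.52% and 13.0%. These matches describe the letters of the windows and are not evidence of binding. A window with many CpGs also occurred in a gene with almost no UMIs: Gria2 had 19 CpGs and 2 UMIs in all libraries. Grm3, Gabra5 and Gabrb2, at 0 UMIs, had 8, 9 and 8 CpGs.

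The kainate receptor genes were the abundant family. Their summed level was 33.0 and 29.9 CPM in the GL261 libraries and 35.5, 48.7, 67.8 and 82.5 CPM in GL261-GSCs replicates 1 to 4. The GL261-GSCs libraries were all above the GL261 libraries, but replicate 1 exceeded the higher GL261 library only slightly. The summed level of all 31 genes followed it, at 35.9 and 32.4 CPM in GL261 and 38.6, 51.7, 71.3 and 87.2 CPM in GL261-GSCs.

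**Figure D1:**
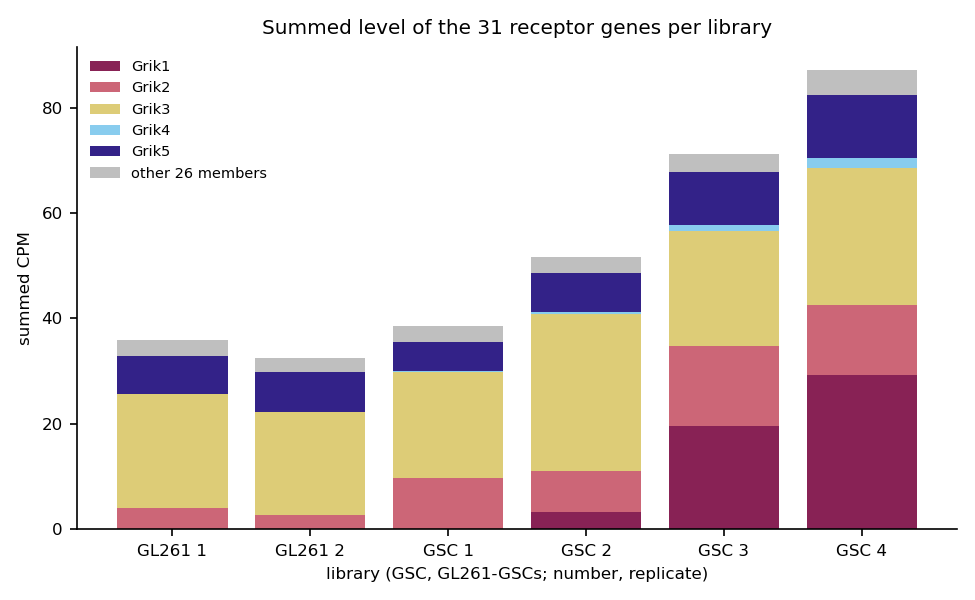
Summed level of the 31 receptor genes in CPM (vertical axis) in each library (horizontal axis), with a coloured segment for each kainate receptor gene and a grey one for the other 26 genes. Grik3 made up most of the GL261 bars, and Grik1 made up 29.2 of 87.2 CPM in GL261-GSCs replicate 4.

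Of the 31 genes, 10 passed the filter on low counts in the comparison of GL261-GSCs with GL261. By the edgeR quasi-likelihood test, 4 of these were called higher in GL261-GSCs (Grik1, Grik2, Grin1 and Grm7) and 1 lower (Grm8) at an adjusted p under 0.05, and 5 were not called (Grik3, Grik4, Grik5, Grin2d and Gabrd). Of the 18439 genes in the fit, 29.9% were called in either direction, with 15.8% higher and 14.1% lower (2920 and 2594 genes). Scaling by library size alone gave 3491 higher and 2034 lower, and the calls of the receptor genes were 4 and 1 as before. The filter passes a gene through the group where it is high, so the counts among the 10 genes are a description. Libraries of the groups did not overlap for 6 of the 10 genes, against 56.7% of all genes tested. With GL261 replicate 1 or GL261 replicate 2 left out, 0 receptor genes were called higher, while Grm8 was called lower in both cases. The single GL261 library that remains then takes its spread from the other group. The median log2 fold change of the 10 genes was 1.01, beside 0.04 over all genes tested. Because of the filter it too is a description.

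**Figure D2:**
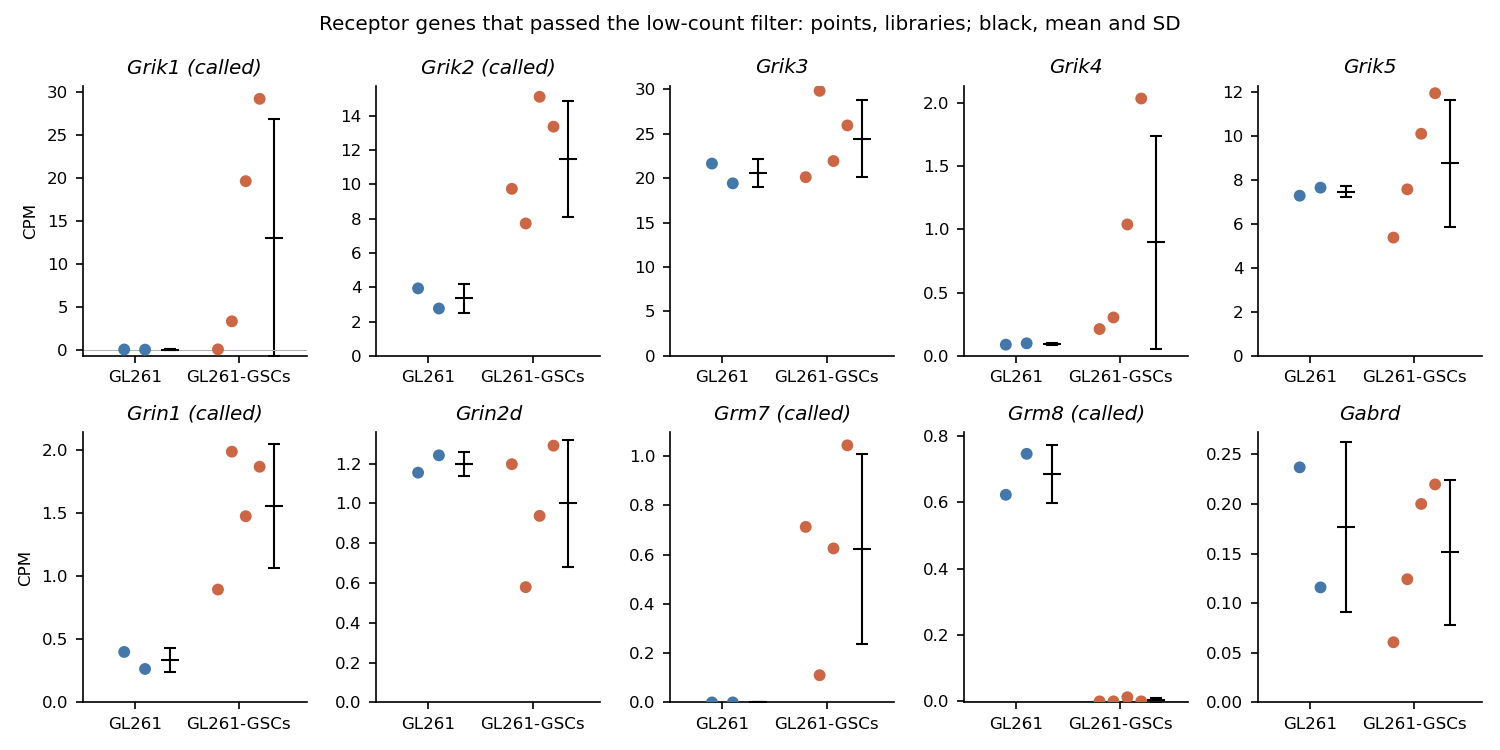
Level in CPM (vertical axis, linear, a separate scale for each gene) of the 10 receptor genes that passed the filter, with a point for each library, blue for GL261 and orange for GL261-GSCs, and the group mean with SD in black. Grik2 and Grin1 were higher in every GL261-GSCs library, whereas Grik1 ranged from 0.0303 to 29.2 CPM within GL261-GSCs.

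Grik3, a channel-forming kainate receptor subunit, had the most UMIs of the 31 genes over all libraries and the highest level in each library except GL261-GSCs replicate 4, where Grik1 was higher. Its level was 21.6 and 19.4 CPM in the GL261 libraries and 20.1, 29.8, 21.9 and 25.9 CPM in GL261-GSCs replicates 1 to 4. The groups overlapped, with a log2 fold change of 0.25 ± 0.19 (SE) and an adjusted p of 0.356 by edgeR. The 95% interval, from a t distribution with 4 residual degrees of freedom, was -0.28 to 0.78 on the log2 scale. Grik3 lies on chromosome 4 (125490700 to 125714173, GRCm38).

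Grik2, the channel-forming subunit whose promoter is shown above, rose in GL261-GSCs. It was at 3.94 and 2.77 CPM in the GL261 libraries and at 9.75, 7.73, 15.1 and 13.4 CPM in GL261-GSCs replicates 1 to 4. Every GL261-GSCs library lay above both GL261 libraries, with the 2 highest values in replicates 3 and 4. The mean was 3.35 ± 0.83 CPM (SD, n = 2) in GL261 and 11.5 ± 3.36 CPM (SD, n = 4) in GL261-GSCs, and the log2 fold change was 1.78 ± 0.35 (SE) with an adjusted p of 0.0100 by edgeR. Without a GL261 library the call was lost, with an adjusted p of 0.0542 or 0.105 and log2 fold changes of 2.04 and 1.54. The gene lies on chromosome 10 (49094833 to 49788766).

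Grik1, the remaining channel-forming subunit, was read almost only in 3 of the 4 GL261-GSCs libraries. It had 1 and 0 UMIs in the GL261 libraries and 2, 239, 1570 and 1064 UMIs in GL261-GSCs replicates 1 to 4, or 0.0303, 3.30, 19.6 and 29.2 CPM. GL261-GSCs replicate 1 thus stood at the level of GL261, and the highest GL261-GSCs library was 964 times the lowest. Pooled over libraries, the UMI ratio of GL261-GSCs to GL261 was 1443, with a 95% counting interval of 259 to 57015 that covers counting error only. The adjusted p was 0.0477 by edgeR. The call was lost with limma-voom (adjusted p = 0.393), in cells of at least 5000 UMIs (0.0608), and without GL261-GSCs replicate 2 (0.0593), 3 (0.0853) or 4 (0.0671), and without GL261 replicate 1 (0.214) or 2 (0.240). Without GL261-GSCs replicate 1 it was 0.00437. The gene lies on chromosome 16 (87895900 to 88290265).

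In the same libraries the level of Syt1, a neuronal vesicle protein gene on the neuron marker list, was 1.15, 12.4, 51.5 and 78.1 CPM in GL261-GSCs replicates 1 to 4, and 0.0148 and 0.0331 CPM in GL261. Within GL261-GSCs its order across libraries was that of Grik1, while in GL261 both were near 0. The summed level of the 7 neuron markers was 111 and 112 CPM in GL261 and 129, 156, 180 and 245 CPM in GL261-GSCs. Tubb3 on that list moved the other way, from 85.0 and 92.2 CPM in GL261 to 45.8, 24.7, 4.15 and 4.45 CPM in GL261-GSCs replicates 1 to 4. Rbfox3 was at 0 UMIs in every library and Snap25 had 7 UMIs in all. The part of this marker list in the Grik1 level was not tested.

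The high-affinity subunits Grik5 and Grik4 were not called. Grik5 was at 7.29 and 7.65 CPM in the GL261 libraries and at 5.38, 7.57, 10.1 and 11.9 CPM in GL261-GSCs replicates 1 to 4, and the groups overlapped. Its log2 fold change was 0.23 ± 0.33 (SE), with a 95% interval of -0.68 to 1.13 and an adjusted p of 0.630 by edgeR. Without GL261-GSCs replicates 1 and 2 together Grik5 was called, with an adjusted p of 0.0172. Grik4 was at 0.0888 and 0.0994 CPM in GL261 and at 0.212, 0.304, 1.04 and 2.03 CPM in GL261-GSCs. All GL261-GSCs libraries lay above GL261 for Grik4, with most of the difference in replicates 3 and 4. Its log2 fold change was 3.20 ± 1.10 (SE), with an adjusted p of 0.0677 by edgeR. The adjusted p changed to 0.00545 with DESeq2 and to 0.0277 without GL261-GSCs replicate 1. Grik4 was also called without the filter, and without GL261-GSCs replicates 1 and 2 or replicates 3 and 4 together. With all libraries it was called in 2 of 8 alternatives. Its log2 fold change ran from 1.42 to 3.37 over these 8 and from 1.45 to 3.99 with libraries left out.

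The NMDA receptor genes were low, and Grin1, the obligate subunit, rose in GL261-GSCs. Grin1 was at 0.400 and 0.265 CPM in the GL261 libraries and at 0.894, 1.99, 1.47 and 1.87 CPM in GL261-GSCs replicates 1 to 4. All GL261-GSCs libraries were above both GL261 libraries. The means were 0.332 ± 0.0954 CPM (SD, n = 2) and 1.56 ± 0.492 CPM (SD, n = 4), with a log2 fold change of 2.21 ± 0.44 (SE) and an adjusted p of 0.0109 by edgeR. Without GL261 replicate 1 or 2 the adjusted p was 0.0639 or 0.111. Grin1 (chromosome 2, 25291181 to 25319187) overlaps exons of the antisense gene Grin1os. The sources used here do not give the strand setting of the counting, so whether reads of Grin1os were counted for Grin1 is not known.

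Among partner subunits, Grin2d was at 1.16 and 1.24 CPM in GL261 and at 1.20, 0.579, 0.938 and 1.29 CPM in GL261-GSCs. The groups overlapped, with a log2 fold change of -0.27 ± 0.36 (SE), a 95% interval of -1.27 to 0.74 and an adjusted p of 0.608 by edgeR. It shares exon positions with the gene Gm45441 on the other strand. Grin3a had 22 UMIs in all 6 libraries, Grin2b 8, Grin2c 2 and Grin2a 1. NMDA subunit mRNA was thus mostly that of Grin1 and Grin2d. Cells with a UMI of Grin1 and of a Grin2 gene numbered 1 or 2 in each library, of 42 to 82 cells with a Grin2 UMI per library. UMIs this sparse cannot show which subunits a cell uses.

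AMPA and delta receptor genes were close to undetected. Gria1 had 7 UMIs in all libraries together, Gria3 4, Gria2 2 and Gria4 2, and the summed AMPA level was at most 0.137 CPM in a library. The delta subunit gene Grid1 had 3 UMIs. Over the called cells of a group together, 3 UMIs correspond to 0.0235 CPM in GL261 and 0.0118 CPM in GL261-GSCs, which is the level that a count of 0 allows. None of these 5 genes passed the filter, and their difference between the groups was not detectable at this depth.

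Among the metabotropic glutamate receptor genes, Grm7 rose and Grm8 fell in GL261-GSCs. Both encode receptors of a subgroup that inhibits adenylate cyclase and is known from presynaptic sites. Grm7 had 0 UMIs in both GL261 libraries and 47, 8, 50 and 38 UMIs in GL261-GSCs replicates 1 to 4, or 0.712, 0.110, 0.625 and 1.04 CPM. Grm8 had 42 and 45 UMIs in GL261, or 0.622 and 0.745 CPM, and 0, 0, 1 and 0 UMIs in GL261-GSCs. The groups did not overlap for either gene. Grm7 was at least 23.9-fold higher in GL261-GSCs, counted against 3 UMIs over the GL261 libraries together, with an adjusted p of 0.0177 by edgeR. Grm8 was lower by a pooled UMI ratio of 173, with a 95% counting interval of 30.3 to 6924 and an adjusted p of 6.42e-04 by edgeR. Both genes lie on chromosome 6, Grm7 at 110645581 to 111567230 and Grm8 at 27275119 to 28135178.

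The call of Grm8 held with each library left out in turn, with adjusted p-values up to 0.0114 by edgeR, whereas that of Grm7 was lost without GL261 replicate 1 (0.0851) or 2 (0.0848). Both rest on 143 and 88 UMIs in all. Grm7 overlaps exons of Gm20387 on the other strand, and Grm8 contains the microRNA gene Mir592 on its own strand. Grm4, of the same subgroup, had 8 UMIs, all in GL261 replicate 1. Grm2 had 1 UMI, and Grm3 and Grm5 had 0.

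The GABA-A receptor genes had few UMIs. The chromosome 5 cluster (70751047 to 72149037; Gabrg1, Gabra2, Gabra4 and Gabrb1) had 38 UMIs in all libraries, 32 of them from the beta subunit gene Gabrb1. Gabrg1 had 3, Gabra4 2 and Gabra2 1. On chromosome 7, Gabrg3 had 1 UMI and Gabra5 had 0. The chromosome X cluster (Gabre, Gabra3 and Gabrq) had 3, of which Gabra3 had 2. The beta subunit gene Gabrb2, on chromosome 11, had 0. Exons of Gabra4 and Gabrb1 overlap on opposite strands.

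Gabrd, a delta subunit gene on chromosome 4, had 60 UMIs, the most of the 9 GABA-A subunit genes among the 31. It was at 0.237 and 0.116 CPM in GL261 and at 0.0606, 0.124, 0.200 and 0.220 CPM in GL261-GSCs. The groups overlapped, with a log2 fold change of -0.26 ± 0.59 (SE) and an adjusted p of 0.768 by edgeR.

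At 2000 UMIs per cell, few single cells held a UMI of a given receptor gene. Cells were thinned to 2000 UMIs each, and all 9810 GL261 cells and 21921 GL261-GSCs cells were deep enough. Only Grik2 and Grik3 had a UMI in at least 1% of thinned cells in every GL261-GSCs library, and no gene reached 5% in all of them. Without thinning, 4 genes reached 1% (Grik2, Grik3, Grik5 and Grin1). A UMI of any kainate receptor gene was then found in 33.5% and 28.3% of GL261 cells and in 38.9 to 48.9% of GL261-GSCs cells. A cell type that should lack these genes was not present, so shares are set beside the share that free RNA would give. That share was taken from barcodes of at least 100 and under 1000 UMIs, with medians of 472 to 679 UMIs. It assumes that every UMI of a cell is free RNA, whereas called cells had medians of 6670 to 15478 UMIs. A measured share near it therefore does not show that the UMIs were free RNA.

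Grik3 had a UMI in 4.68% (95% exact binomial interval 4.10 to 5.31%) and 3.74% (3.23 to 4.30%) of thinned GL261 cells. In GL261-GSCs replicates 1 to 4 the shares were 4.41%, 6.15%, 4.55% and 6.52%. Free RNA alone would give 2.89% and 1.84% in the GL261 libraries but 2.82%, 3.48%, 3.37% and 4.12% in the GL261-GSCs libraries, below the measured share in each library. Without thinning Grik3 was read in 17.9 to 28.5% of cells. Of the 31 genes, Grik3 had the highest share in both GL261 libraries.

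Grik2 was read in 0.832% and 0.600% of thinned GL261 cells and in 2.20%, 1.86%, 4.19% and 4.43% of GL261-GSCs cells in replicates 1 to 4. The share that free RNA would give was 0.471% and 0.348% in the GL261 libraries, with 1.36%, 1.09%, 2.24% and 1.78% in those of GL261-GSCs. The measured shares were above it in every library. Grik1 was read in 0%, 1.06%, 4.93% and 8.67% of GL261-GSCs cells, with free RNA shares of 0%, 0.497%, 1.60% and 4.43%. A count of 0 in replicate 1 allows up to 0.0704% of thinned cells with a UMI, which does not limit the cells that express the gene, and without thinning 2 cells of that library had one. The Grik1 UMIs were spread over many cells: in replicates 2 to 4 they came from 220, 1270 and 857 cells, with at most 6 UMIs in a cell. These were 3.75%, 17.5% and 19.0% of cells without thinning, beside 2.92%, 8.37% and 15.0% for free RNA. Free RNA would also be spread over many cells, so the spread alone does not show which cells express the gene.

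Grin1 was read in 0.104% and 0.0600% of thinned GL261 cells and in 0.164%, 0.392%, 0.371% and 0.332% of GL261-GSCs cells. Free RNA would give 0.140%, 0.326%, 0.269% and 0.374% in GL261-GSCs. The exact 95% intervals of the measured shares, 0.0660 to 0.338%, 0.249 to 0.587%, 0.245 to 0.540% and 0.186 to 0.548%, contained the free RNA share in all 4 GL261-GSCs libraries, so the thinned Grin1 shares of GL261-GSCs are not told apart from free RNA. In the GL261 libraries free RNA would give 0.0292% and 0.0122%, just below the intervals of 0.0338 to 0.243% and 0.0124 to 0.175%, which rest on 5 and 3 cells. Without thinning, the GL261-GSCs shares were 1.36%, 2.39%, 1.57% and 1.46%, beside 1.07%, 1.92%, 1.46% and 1.37% for free RNA. Grik5 was read in 1.50% and 1.62% of GL261 cells and in 0.938 to 2.46% of GL261-GSCs cells, above the free RNA share in each library, which was 0.622% and 0.542% in GL261 and 0.470 to 1.70% in GL261-GSCs. Grik4 was read in 0.0235%, 0.0852%, 0.344% and 0.598% of thinned cells in GL261-GSCs replicates 1 to 4. Free RNA would give 0.0466%, 0.117%, 0.181% and 0.394%. The Grik4 shares of replicates 1 and 2, from 1 and 5 cells, are thus not told apart from free RNA. In GL261 the Grik4 shares were 0.0208% and 0.0200%, from 1 cell each, beside 0.0233% and 0.0122% for free RNA. Grm8 was read in 0.146% and 0.0800% of thinned GL261 cells, slightly below the 0.152% and 0.0916% that free RNA would give. The exact 95% intervals, 0.0586 to 0.300% and 0.0218 to 0.205%, contained the free RNA share. These shares, from 7 and 4 cells, are thus not told apart from free RNA. Without thinning the Grm8 shares were 0.853% and 0.860%, beside 1.11% and 0.600% for free RNA, so GL261 replicate 2 then lay above it. Grm7 was read in 0.211%, 0%, 0.0962% and 0.199% of GL261-GSCs cells in replicates 1 to 4, beside 0.163%, 0.0123%, 0.0585% and 0.0564% for free RNA, which lay below the exact 95% interval only in replicate 4 (0.0912 to 0.378%). The shares of both genes in the other group were 0%. Intervals and limits cover counting error only. Beyond these shares, summed counts cannot tell fewer expressing cells from less RNA per cell.

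**Figure D3:**
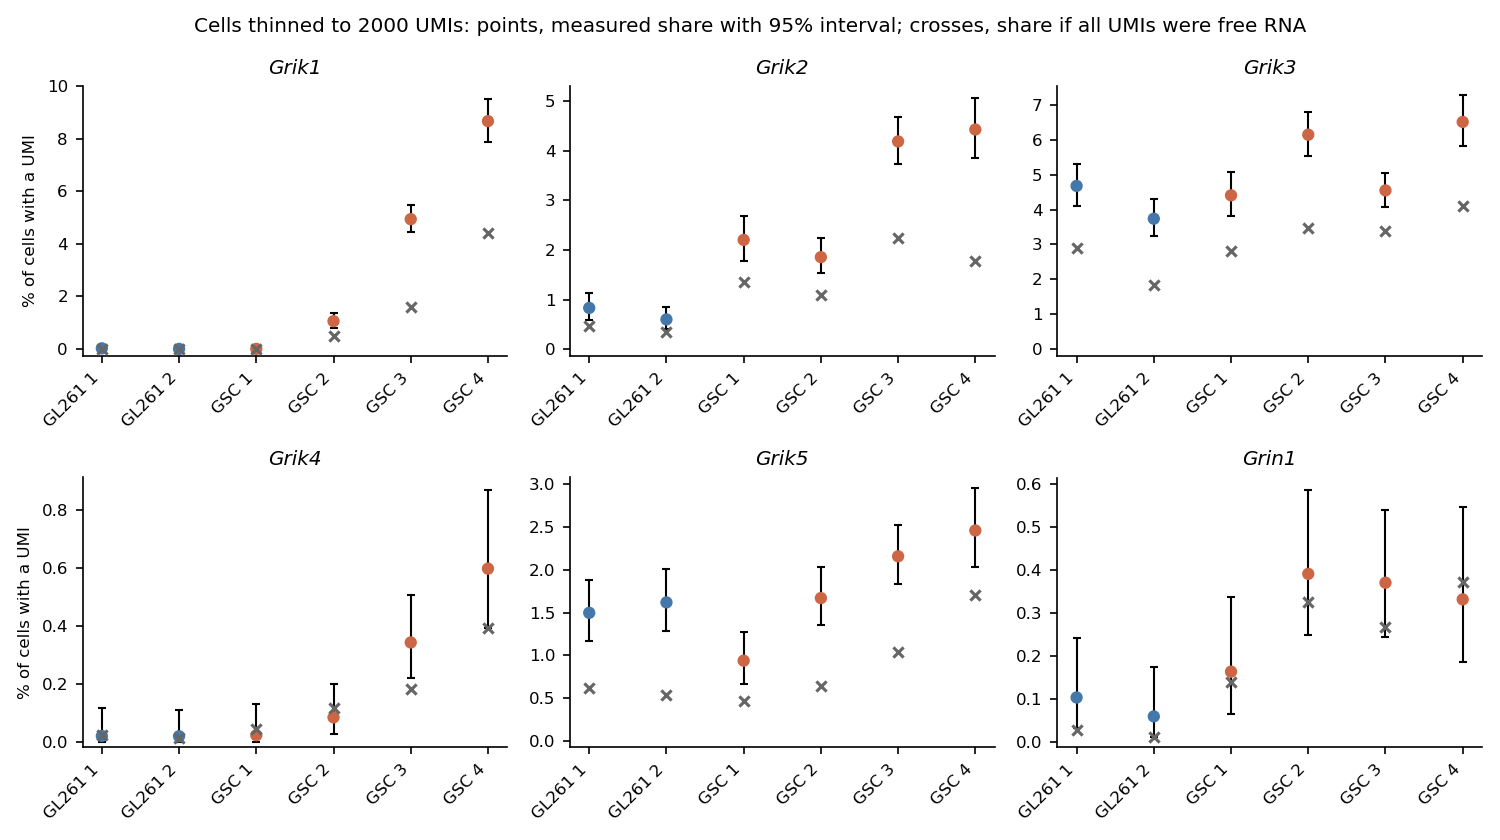
Share of called cells with a UMI in percent (vertical axis) for 6 genes by library (horizontal axis), after thinning each cell to 2000 UMIs, as points with exact 95% intervals, and as crosses the share expected if every UMI were free RNA. Grik1 reached 8.67% in GL261-GSCs replicate 4 against 4.43% for free RNA, and the Grin1 intervals contained the free RNA share in all 4 GL261-GSCs libraries.

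Partner genes were taken from 5 lists of 109 genes, of which 67 passed the filter, 23 were called higher and 14 lower. As the filter passes a gene through the group where it is high, the counts and medians of these lists are descriptions. Among 24 auxiliary subunit genes, which set the gating and traffic of glutamate receptors, 12 were tested, and GL261-GSCs had 9 of them called higher and 0 lower, beside 15.8% and 14.1% of all genes. Olfm2, named after its values were seen, went the other way, at 24.5 and 33.1 CPM in GL261 and 1.15, 7.55, 8.99 and 9.03 CPM in GL261-GSCs (adjusted p = 0.0529 by edgeR), and was called lower with DESeq2, limma-voom, no filter, barcodes of at least 1000 UMIs, the replicate block, and without GL261-GSCs replicate 1 or replicates 1 and 2 together. The median log2 fold change of the 12 was 1.70. Without GL261 replicate 1 or 2, 15 auxiliary genes were tested in place of 12. The calls of Neto1 and Olfm1 remained in both cases and that of Shisa7 only without GL261 replicate 1, while the other calls were lost. Neto1 and Neto2 encode auxiliary subunits of kainate receptors. Neto1 was at 21.1 and 13.6 CPM in GL261 and at 77.9, 65.7, 110 and 130 CPM in GL261-GSCs, a log2 fold change of 2.46 ± 0.36 (SE) with an adjusted p of 0.00322 by edgeR. Neto2, named after its values were seen, was at 20.5 and 18.6 CPM in GL261 and at 42.6, 38.7, 30.5 and 26.9 CPM in GL261-GSCs, with a log2 fold change of 0.83 ± 0.22 (SE) and an adjusted p of 0.0286.

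Neto1 and Neto2 were both above GL261 in every GL261-GSCs library. Among the other auxiliary genes, Olfm1, a secreted protein found in AMPA receptor complexes, rose with a log2 fold change of 2.69 ± 0.30 (SE) and an adjusted p of 0.00109. Shisa7, an auxiliary subunit of AMPA and GABA-A receptors, rose by 2.04 ± 0.32 (adjusted p = 0.00468 by edgeR). Cacng4, a transmembrane AMPA receptor regulatory protein, had 1 UMI in GL261 and 75, 143, 991 and 732 UMIs in GL261-GSCs replicates 1 to 4, a pooled ratio of 974 (95% counting interval 175 to 38499). Olfm3, of the same family as Olfm1, was at least 68.1-fold higher, with 0 UMIs in both GL261 libraries. The auxiliary genes of AMPA receptors were thus detected in libraries where the AMPA subunit genes themselves were not above 0.137 CPM in sum.

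Other receptor genes of the same families were listed for 21 genes, of which 6 were tested, 2 were called higher and 0 lower, with a median log2 fold change of 0.98. Gabbr1, an obligate subunit of the metabotropic GABA-B receptor, was the most abundant, at 21.6 and 21.3 CPM in GL261 and 27.3, 29.8, 41.1 and 65.2 CPM in GL261-GSCs. It was above GL261 in every GL261-GSCs library but was not called (log2 fold change 0.93 ± 0.37, adjusted p = 0.0986 by edgeR). It was called higher with DESeq2, without GL261-GSCs replicate 1, and without GL261-GSCs replicates 1 and 2 or replicates 3 and 4 together. Its partner Gabbr2 had 0 UMIs in both GL261 libraries but 16, 12, 21 and 17 UMIs in GL261-GSCs replicates 1 to 4, at least 11-fold higher against 3 UMIs over GL261 together, and was called (0.00663). Gabrr1, a subunit of the GABA-A rho type, had 3 UMIs over the GL261 and 233 over the GL261-GSCs libraries, a pooled ratio of 39.0 (13.2 to 190), and was called (0.00282). Both calls held without either GL261 library.

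Of 18 genes of glutamate transport and metabolism, 15 were tested, 3 were called higher and 4 lower, with a median log2 fold change of -0.24. Slc1a3, the glial glutamate uptake transporter, had 11 and 0 UMIs in the GL261 libraries and was at 61.1, 85.7, 68.1 and 84.0 CPM in GL261-GSCs replicates 1 to 4. Its log2 fold change was 9.75 ± 0.71 (SE), with an adjusted p of 2.53e-04 by edgeR. Without GL261 replicate 1 or 2, Slc1a3 was the only gene of this list to be called. Slc38a1 and Slc38a2, glutamine transporters, rose by 0.73 ± 0.14 and 0.74 ± 0.14 on the log2 scale, with adjusted p-values of 0.0107 and 0.00930. Glul, which makes glutamine from glutamate, had a log2 fold change of -0.93 ± 0.17 (adjusted p = 0.00846), and Glud1, which oxidizes glutamate, one of -0.86 ± 0.21 (0.0230).

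Of 15 genes of GABA synthesis, transport and breakdown and of chloride transport, 9 were tested, 2 were called higher and 3 lower, with a median log2 fold change of 0.48. With library size scaling 3 were called higher and 2 lower. The breakdown enzymes Abat and Aldh5a1 rose, by 1.99 ± 0.41 and 1.25 ± 0.27 on the log2 scale, with adjusted p-values of 0.0119 and 0.0151 by edgeR. The GABA transporters Slc6a13 and Slc6a12 fell to few UMIs: Slc6a13 had 42 and 28 UMIs in GL261 and 1, 1, 0 and 0 in GL261-GSCs (adjusted p = 0.00113), and Slc6a12 had 17 and 13 against 3, 2, 0 and 0 (0.0207). Aldh9a1, an aldehyde dehydrogenase, fell by 0.60 on the log2 scale (0.0436). Without GL261 replicate 1, Aldh5a1 and Slc6a13 were the genes of this list still called, and without GL261 replicate 2 only Slc6a13 was, so the calls of Abat, Slc6a12 and Aldh9a1 were lost in both cases. The GABA synthesis genes Gad1 and Gad2, named after their values were seen, had 2 and 1 UMIs in all libraries.

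Of 31 scaffold and trafficking genes, 25 were tested, 7 were called higher and 7 lower, with a median log2 fold change of 0.18. Grip1, a scaffold that binds AMPA receptors, was at 0.459 and 0.232 CPM in GL261 and 16.4, 16.2, 17.9 and 19.2 CPM in GL261-GSCs, a log2 fold change of 5.64 ± 0.34 (SE) with an adjusted p of 1.31e-04 by edgeR. Dlg3, a scaffold of NMDA receptors, rose by 2.43 ± 0.26 (adjusted p = 9.51e-04). Gabarapl1 rose by 0.76 ± 0.11 (0.00361), whereas its relative Gabarap, an autophagy protein that also binds GABA-A receptors, fell, with a log2 fold change of -1.19 ± 0.15 (0.00179). Dlg1, another scaffold of the same family as Dlg3, fell, with a log2 fold change of -1.11 ± 0.11 (8.00e-04). Without GL261 replicate 1 this list had 2 genes called higher and 4 lower, and without GL261 replicate 2 it had 4 and 4. The calls of Grip1, Dlg3, Gabarap and Dlg1 held in both cases, and that of Gabarapl1 was lost in both. Among the 5 lists the share of genes called in either direction ran from 2 of 6 to 9 of 12 genes tested, beside 29.9% of all genes tested.

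**Figure D4:**
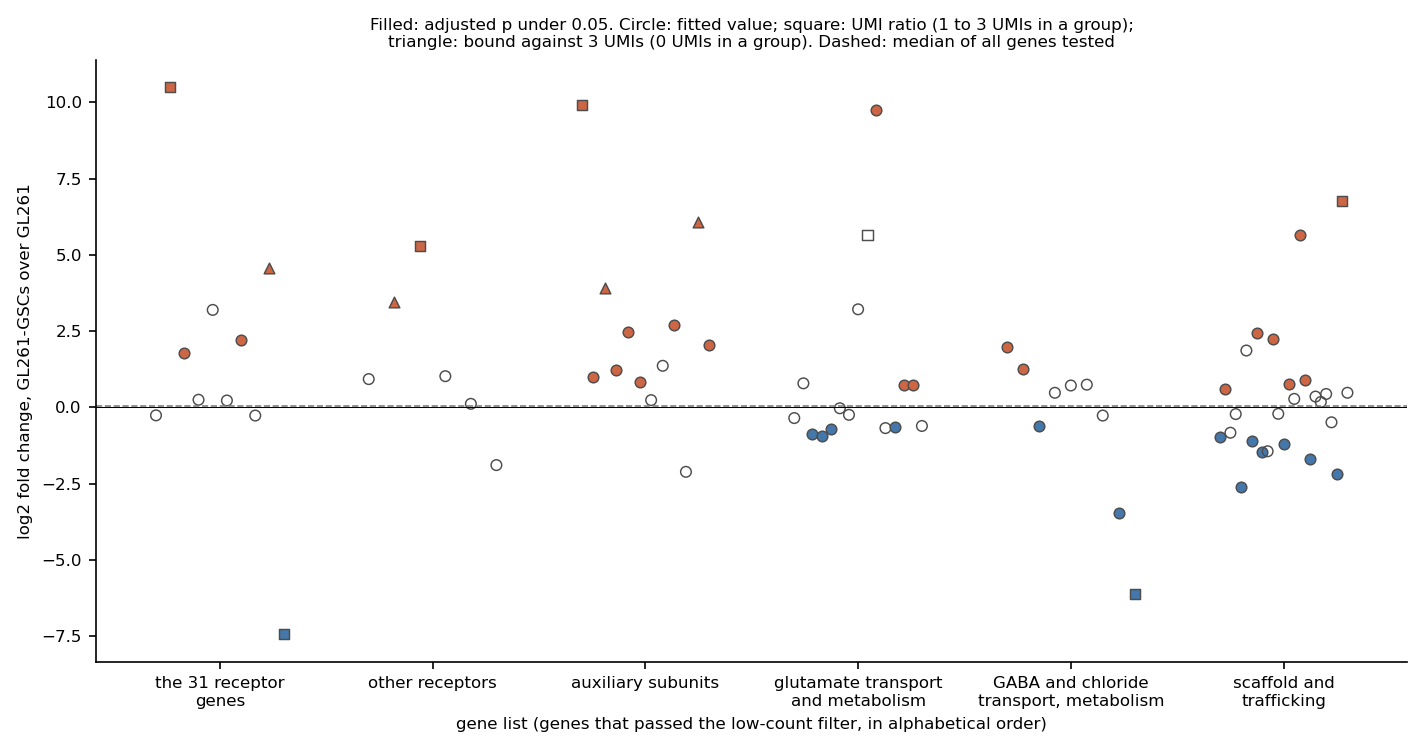
Log2 fold change of GL261-GSCs over GL261 (vertical axis) for every gene of the receptor set and of the 5 partner lists that passed the filter (horizontal axis, by list), filled where the adjusted p was under 0.05. Circles are fitted values, squares UMI ratios for genes with 1 to 3 UMIs in a group, and triangles bounds for genes with 0, and 9 of 12 auxiliary subunit genes were called higher.

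Within GL261-GSCs, the cell cycle was read from the share of UMIs on 22 G2/M genes, and the 25% of cells with the highest share (G2/M-high) were compared with the lower 50% (G2/M-low) of each library, with the library as a block. G2/M-high is a range of that score and not a cell type, and 354 to 977 cells per library lay within 20% of its lower edge. Of the 31 genes, 7 passed the filter and 1 was called, Grin1, while 38.6% of the 14497 genes tested were called. Grin1 was at 1.14, 2.69, 1.80 and 2.38 CPM in G2/M-low cells of replicates 1 to 4 and at 0.748, 1.71, 1.27 and 1.95 CPM in G2/M-high cells. It was lower in G2/M-high cells in 4 of 4 libraries, with a log2 difference of -0.52 ± 0.16 (SE) and an adjusted p of 0.0326 by edgeR. The call was lost with DESeq2 (0.183) and without replicate 1, 2 or 3 (0.0832, 0.150 and 0.101), and with the highest 10% of cells in place of 25% the difference was 0.06 (0.854).

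The kainate receptor genes did not pass the threshold in this comparison. Grik2 was at 9.87, 7.70, 15.5 and 13.3 CPM in G2/M-low cells and at 11.6, 8.15, 17.0 and 13.4 CPM in G2/M-high cells, with a 95% interval of the log2 difference of -0.13 to 0.36 and an adjusted p of 0.255 by edgeR. For Grik3 the interval was -0.29 to 0.21, for Grik5 -0.41 to 0.11, for Grik1 -0.50 to 0.30 and for Grik4 -0.99 to 0.35. Grin2d had the widest interval, -1.32 to 0.41. G2/M-high cells were deeper than G2/M-low cells, with medians of 7673 to 17319 and 6945 to 14661 UMIs, and the part of depth was not tested beyond thinning, after which Grin1 was not among the genes tested.

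**Figure D5:**
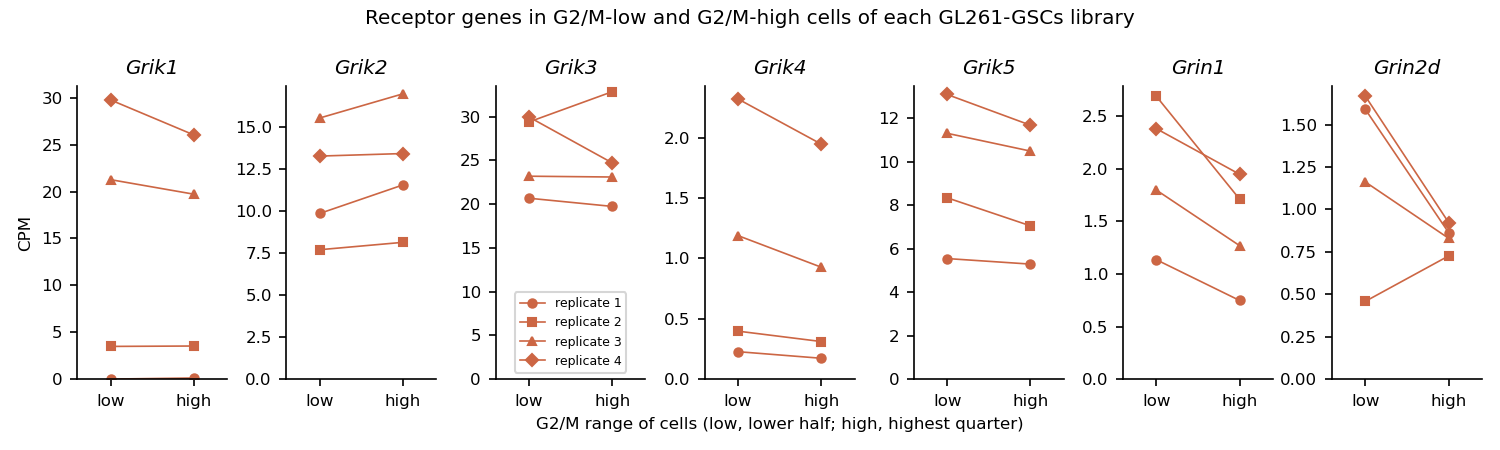
Level in CPM (vertical axis, a separate scale for each gene) of the 7 receptor genes tested in G2/M-low and G2/M-high cells (horizontal axis) of the 4 GL261-GSCs libraries, joined by a line for each library. Grin1 fell in all 4 libraries, whereas Grik2 was higher in G2/M-high cells in all 4 and Grik3 in 1 of 4.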

How the data were processed

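The authors deposited raw UMI counts per gene and barcode, unfiltered, for 2 GL261 and 4 GL261-GSCs libraries made with a 10x Genomics 5′ kit, per the labels' protocols. Cell Ranger 4.0 wrote them, per the file headers, with mm10 as the build per the submitters' processing notes. The sources used here do not give alignment or strand settings, and gene coordinates come from GENCODE M21.

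A barcode was called a cell above 10% of the UMI count at percentile 99 of the library's 3000 largest barcodes, with at least 500 genes and under 10% mitochondrial UMIs. Doublets were not removed. UMIs were summed over cells per library and compared with edgeR 4.0.16 in R 4.3.3 (quasi-likelihood, TMM, filterByExpr, Benjamini-Hochberg over all genes, 2-sided). Alternatives were DESeq2 1.42.0, limma-voom 3.58.1, other scalings, filters, cell calls and left-out libraries. On simulated data edgeR recovered 172 of 200 changed genes (log2 change of 2, 18439 genes) with 5 false calls in the main comparison. In the G2/M comparison it recovered 192 of 200 (14497 genes) with 5 false calls. Every simulated gene was given the common dispersion, 0.0969 in the main and 0.00669 in the G2/M comparison. Genes such as Grik1 varied far more between GL261-GSCs libraries, so these counts give no error rate for them. An SE is the absolute log2 fold change over the square root of F.

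The receptor genes, partner lists and markers were chosen with earlier results of these data known. Receptor genes called, or with a mean of 5 CPM or more in a group, have a value for every library, and from each partner list at most 5 called genes by adjusted p are named. The G2/M list had 22 genes. Values of some listed genes are not reported here.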

Additional observations from a re-analysis of the deposited data

Results flagged for a closer look

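Grm8 in GL261-GSCs replicate 3, at 0.0125 CPM, stood apart from replicates 1, 2 and 4, which were at 0 CPM. The value is a single UMI in 79472306. It was found by comparing the gap to the nearest other library with the whole range of the 4 libraries. With 1 UMI in 1 library and 0 in the others, the gap equals the range by construction, so the chance rate of about 1 in 20 does not apply and nothing is read from it. It was the 1 that stood out among 47 such comparisons.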

How the results depend on the processing

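With 2 GL261 libraries, leaving out either of them removes most calls. With any single GL261-GSCs library left out, 4063 to 6193 genes, 3 to 5 receptor genes higher and 34 to 40 partner genes were called. Over the single libraries left out, the genes called ran from 1817 to 6193, beside 5514 with all libraries. The receptor genes called higher ran from 0 to 5, beside 4, and the partner genes called from 14 to 40, beside 37. Without GL261 replicate 1 the numbers were 1972, 0 and 14, and without GL261 replicate 2 they were 1817, 0 and 14. Leaving out GL261-GSCs replicates 1 and 2 together gave 9881 genes called. Receptor genes called lower numbered 1 (Grm8) in every setting tried. With all libraries kept, the receptor genes called higher ran from 3 to 5. Library size scaling in place of TMM moved the median of all genes from 0.04 to 0.18 on the log2 scale.

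The replicate block kept 4 receptor genes higher and 1 lower. As replicates 3 and 4 exist only in GL261-GSCs, that fit compares the groups within replicates 1 and 2 alone. It gives each replicate its own term, so few residual degrees of freedom remain. The kept calls therefore say little about how stable the results are. Deviations from the group means were hardly correlated between libraries of the 2 groups (correlations from -0.05 to 0.05). With 2 GL261 libraries their deviations mirror each other, so this says little about pairing by replicate number. Among genes that were not called, Grik5 changed direction in 2 settings that both rest on replicates 1 and 2. Its log2 fold change was -0.22 with the replicate block and -0.20 without GL261-GSCs replicates 3 and 4. The direction also changed for Gabrd, whose log2 fold change ran from -0.67 to 0.34 over the single libraries left out. It was 0.34 without GL261 replicate 1, 0.02 without GL261-GSCs replicate 1 and 0.24 without GL261-GSCs replicates 1 and 2. The cause was not tested.

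In the G2/M comparison, thinning to 2000 UMIs gave 3379 genes called, beside 5595, and leaving out a library 2610 to 5696. Receptor genes called numbered 0 with thinning or DESeq2, 2 without the filter, and 0 to 2 with a library left out. With the highest 10% of cells the differences of Grik1, Grik3 and Grin1 became 0.049, 0.073 and 0.064, and that of Grik3 was 0.058 after thinning and -0.096 to 0.039 with a library left out. Genes read in at least 1% of cells numbered 4 without thinning, 0 at 5% and 2 to 4 with a library left out, beside 2.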
